A study of Homo sapiens with 31 samples.

Results

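The comparison described here is Rhosin against DMSO in TMD8 cells, taken as every row of the TMD8 count table in 6 of the series' 31 libraries. TMD8 is an established line of ABC DLBCL, an aggressive B-cell lymphoma whose cells resemble activated B cells. The Rhosin group was WT TMD8 cells given 60 µM Rhosin for 10 h (3 libraries), and the DMSO group was WT TMD8 cells given DMSO, the solvent, for 10 h (3 libraries). Rhosin is a small molecule that keeps RHOA, a GTPase that controls actin and signalling, from being activated by its exchange factors. Gene labels were checked against WT TMD8 cells given 50 nM copanlisib overnight. Also used were 3 TMD8 libraries given 10 nM ibrutinib, which inhibits the B-cell receptor kinase BTK, and the Rhosin and DMSO groups of RIVA and HBL1, other WT lines of the same lymphoma type, with 3 libraries per group and the same dose and time. The line is a single tumour-derived culture, and the labels do not say whether replicates were separate cultures, so p-values measure only the spread between these libraries.

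Lymphomas of this type often live on signals from the B-cell receptor, which run through kinases such as BTK and end in the transcription factor NF-kB. IRF4 is part of that programme, and these cells depend on it. Signals that drive growth also raise the making of ribosomes, the protein-folding machinery and the enzymes of DNA replication, largely through MYC, while members of the MXD family compete with MYC for its partner MAX at CACGTG sequences.

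Each table has 63140 rows headed by Ensembl gene IDs. Across most of the genome the counts under an ID do not follow the level of the gene it names, so genes were named only in 7 segments on GRCh38 where they do. These held 3020 rows, 4.78% of all, and 20.18% of the counts in DMSO. A gene was named if its mean DMSO count also lay within 2 log2 units of the trend with its level in the series' log2 table of WT TMD8 cells under copanlisib, or if both were low. That left 901 label-checked genes, of which 569 had enough counts to be tested and 332 did not. On chromosome 4, 138 of 196 genes with a level were label-checked, against 189 of 205 on chromosome 19. Spearman's rank correlation between counts and levels, across genes, was 0.896 inside the segments (876 genes) and 0.073 outside them (17123 genes). By segment it ran from 0.811 on chromosome 4 to 0.972 on chromosome 19. The segments were taken because IDs match levels there, so these correlations describe that choice and do not test it. All other rows are counted but not named, apart from genes said to have missed this check and genes that can share reads with a named one. CD274 and IRF7 passed this check narrowly at 1.99 units from the trend, while NOL6 (2.03), CD83 (2.1) and LYAR (-2.01) missed it narrowly. Of the genes in the segments that failed it, 103 could be tested, of which 28 were called higher, 30 lower and 45 not, with a median log2 fold change of -0.10.

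The 6 libraries held 8911238 to 13843087 counts. Rows whose IDs name mitochondrial genes took 28.4% to 31.1% of them in Rhosin and 26% to 30.2% in DMSO. These rows lie outside the segments, so this may not be the share of mitochondrial RNA. A fit without these rows called 6014 rows, against 6006 with them. The B-cell markers were present: of 8 such genes in the segments, 0 were below 1 CPM (counts scaled to a common library size) in all 6 libraries, and PAX5, a master transcription factor of B cells, had 3614 to 4184 CPM in Rhosin and 3350 to 4295 CPM in DMSO. In CPM of the library totals, the 8 markers summed to 9017 to 10096 in Rhosin and 13151 to 15036 in DMSO. IRF4 alone made 1728 to 2794 of this in Rhosin and 6717 to 7139 in DMSO. Of 20 markers of other lineages, 15 were below 1 CPM in all 6 libraries and 7 of these were at 0 in each. The 20 summed to 1177 to 1222 CPM in Rhosin and 1121 to 1288 in DMSO, nearly all of it from TPM2 and MYOM1. These 2 moved in opposite directions, while the other 3 of the 5 tested were not called. MYOM1 was called higher, at 318 to 429 CPM in Rhosin and 105 to 147 in DMSO. TPM2 was called lower, at 737 to 893 CPM in Rhosin and 1009 to 1145 in DMSO. In bulk RNA, fewer cells of a type and less RNA per cell cannot be told apart.

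Over all table rows, edgeR's quasi-likelihood test called 6006 of 11403 tested rows (52.7%) at an adjusted p under 0.05, with 3010 higher (26.4%) and 2996 lower (26.3%) under Rhosin. The change was at least 2-fold in 1368 higher and 945 lower rows, together 20.3%. Among the label-checked genes, 376 of 569 (66.1%) were called, 185 higher (32.5%) and 191 lower (33.6%). Of these, 66 were at least 2-fold higher and 56 at least 2-fold lower, together 21.4%. The 3 Rhosin and 3 DMSO values did not overlap for 59.3% of all rows tested and 70.8% of label-checked genes, so separate groups are common here. The median log2 fold change was 0.01 over all rows and -0.02 over label-checked genes. These shares are the background against which every count below has to be read. When each library was left out in turn, 312 of the 376 calls held in every fit and 64 were lost in at least 1.

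**Figure D1:**
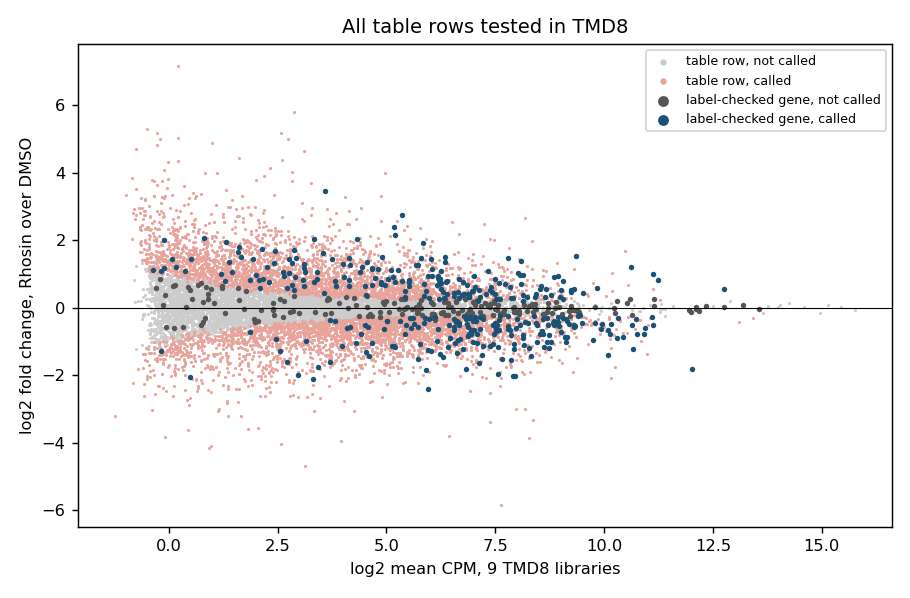
Log2 fold change of Rhosin over DMSO (vertical axis) against log2 mean CPM over the 9 TMD8 libraries (horizontal axis) for the 11403 rows tested. Large dark points are label-checked genes, which lie among the small unnamed rows and mostly at higher levels.

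The calls came from every segment. On chromosome 6 44 of 100 tested genes were higher and 26 lower, with a median log2 fold change of 0.25, the highest of the segments. On chromosome 5 22 of 69 were higher and 31 lower, with a median of -0.19. The segments of chromosomes 4, 9, 11, 18 and 19 had medians from -0.18 to 0.02. The segment on chromosome 6 includes a stretch of histone and butyrophilin genes that is described below.

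PAK1IP1, RCL1 and PUM3, all lower under Rhosin, MXD4, higher, and IRF4, lower, are shown first by their promoters, because each holds a short sequence tied to a factor named above. The windows run from 250 bases before to 50 after the gene start, are from RefSeq on GRCh38.p14, and are written along the gene's own strand. Capitals mark CACGTG, the E-box bound by MYC, MXD4 and their partner MAX, in the windows of PAK1IP1 (chr6:10694722-10695021, + strand), RCL1 (chr9:4792694-4792993, + strand), PUM3 (chr9:2844046-2844345, - strand) and MXD4 (chr4:2262060-2262359, - strand). In IRF4 (chr6:391502-391801, + strand) they mark a match to GGGA, any 4 bases and CC, a loose form of the sequence bound by NF-kB.
PAK1IP1: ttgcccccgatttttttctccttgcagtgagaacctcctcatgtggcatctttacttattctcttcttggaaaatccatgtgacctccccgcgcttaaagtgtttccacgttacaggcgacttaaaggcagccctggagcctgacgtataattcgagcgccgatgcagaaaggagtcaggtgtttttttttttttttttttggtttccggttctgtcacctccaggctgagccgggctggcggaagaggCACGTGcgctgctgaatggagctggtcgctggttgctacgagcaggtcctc
RCL1: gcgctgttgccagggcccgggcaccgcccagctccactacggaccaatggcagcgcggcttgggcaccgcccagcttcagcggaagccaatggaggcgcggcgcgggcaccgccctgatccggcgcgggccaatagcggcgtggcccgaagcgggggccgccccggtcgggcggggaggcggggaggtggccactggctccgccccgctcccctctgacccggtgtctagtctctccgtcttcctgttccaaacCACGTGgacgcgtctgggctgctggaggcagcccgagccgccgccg
PUM3: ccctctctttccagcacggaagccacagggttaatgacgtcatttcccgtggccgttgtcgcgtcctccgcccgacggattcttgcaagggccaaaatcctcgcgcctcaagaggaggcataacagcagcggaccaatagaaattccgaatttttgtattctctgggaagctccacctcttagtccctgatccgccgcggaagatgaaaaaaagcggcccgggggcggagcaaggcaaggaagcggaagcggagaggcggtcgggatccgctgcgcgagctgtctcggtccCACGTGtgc
MXD4: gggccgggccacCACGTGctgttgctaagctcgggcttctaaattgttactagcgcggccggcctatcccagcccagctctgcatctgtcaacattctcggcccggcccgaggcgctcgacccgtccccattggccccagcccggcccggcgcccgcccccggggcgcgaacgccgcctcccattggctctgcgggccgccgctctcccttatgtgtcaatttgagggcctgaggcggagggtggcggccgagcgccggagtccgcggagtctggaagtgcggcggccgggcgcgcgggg
IRF4: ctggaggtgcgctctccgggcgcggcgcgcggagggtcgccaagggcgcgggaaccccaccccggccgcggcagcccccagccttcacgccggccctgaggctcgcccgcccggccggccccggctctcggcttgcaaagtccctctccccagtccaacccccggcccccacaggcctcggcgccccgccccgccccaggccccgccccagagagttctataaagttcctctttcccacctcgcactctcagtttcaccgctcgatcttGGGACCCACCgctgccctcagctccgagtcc

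These sequences were present both in genes that rose and in genes that fell. On either strand, CACGTG was in 9 of 47 windows of genes at least 2-fold lower (19.1%), in 7 of 56 of genes at least 2-fold higher (12.5%), in 57 of 487 of all label-checked genes tested (11.7%) and in 2030 of all 27305 RefSeq windows of this length (7.43%). It was in 3 of 11 windows of the ribosome assembly list described below. The loose NF-kB form in IRF4 was in 29.8% of the lower, 23.2% of the higher and 33.1% of all label-checked genes tested, and in 25.1% of all windows. GGGGG, any 3 bases and CC, another loose NF-kB form that can overlap it, was in 7 of the 47 lower and 2 of the 56 higher windows, against 8.19% of all windows. GGGAC followed directly by TTTCC, which is 1 case of the first NF-kB form, TTTCGCGC and TTTGGCGC, forms bound by E2F, and CCATA followed directly by TTAGG, bound by SRF, were each in at most 1 of the 47 lower windows, in 0 of the 56 higher ones and in at most 0.659% of all windows. The motifs and the printed genes were chosen with the fold changes known, and a match is no proof of binding.

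Genes of the NF-kB programme moved both ways. IRF4 (ENSG00000137265, chromosome 6, 391739 to 411447) had 2694, 1663 and 1891 CPM in Rhosin, against 7156, 7548 and 7130 CPM in DMSO. Every Rhosin library lay below every DMSO library, with the Rhosin libraries more spread. The log2 fold change of IRF4 was -1.80 (SE 0.181, adjusted p = 2.79e-07, edgeR quasi-likelihood test with Benjamini-Hochberg adjustment over all rows, as for every adjusted p here). CD274, the gene of the T-cell inhibiting ligand PD-L1, had 158, 115 and 109.9 CPM in Rhosin and 442, 322 and 339.6 CPM in DMSO, a log2 change of -1.53 (SE 0.169, adjusted p = 8.54e-07). Its groups did not overlap either. GADD45B, a stress gene that NF-kB can induce, went the other way, with 204, 258 and 264 CPM in Rhosin and 148, 117 and 137 CPM in DMSO, a log2 change of 0.85 (SE 0.135, adjusted p = 4.47e-05). PDCD1LG2, which encodes the second PD-1 ligand and lies next to CD274, was at 5.22, 5.5 and 3.53 CPM in Rhosin and 3.04, 2.13 and 2.9 CPM in DMSO. It rose by 0.83 (SE 0.231, adjusted p = 0.006) at these low levels.

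In the whole NF-kB list of 23 genes, 15 were label-checked and 12 tested, of which 6 rose, 3 fell and 3 were not called, with a median log2 change of 0.24. TNIP2, which restrains NF-kB signalling, fell by 0.58, and HIVEP1, which binds NF-kB sites, rose by 0.51. SERPINB9 (0.31), RIPK1 (0.31) and IRF7 (0.33) lost their calls when some single libraries were left out. CD70 (-0.12), TNFSF9 (0.15) and SERPINB1 (0.17) were not called. The level check removed lower members of this list and no called higher one: of 6 members that failed it, 4 were lower, CD83 (-3.32), EBI3 (-1.95), PTGER4 (-1.79) and TICAM1 (-0.98), and 2 were not called. With all 6 kept, 6 rose, 7 fell and 5 were not called, with a median of 0.13.

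**Figure D2:**
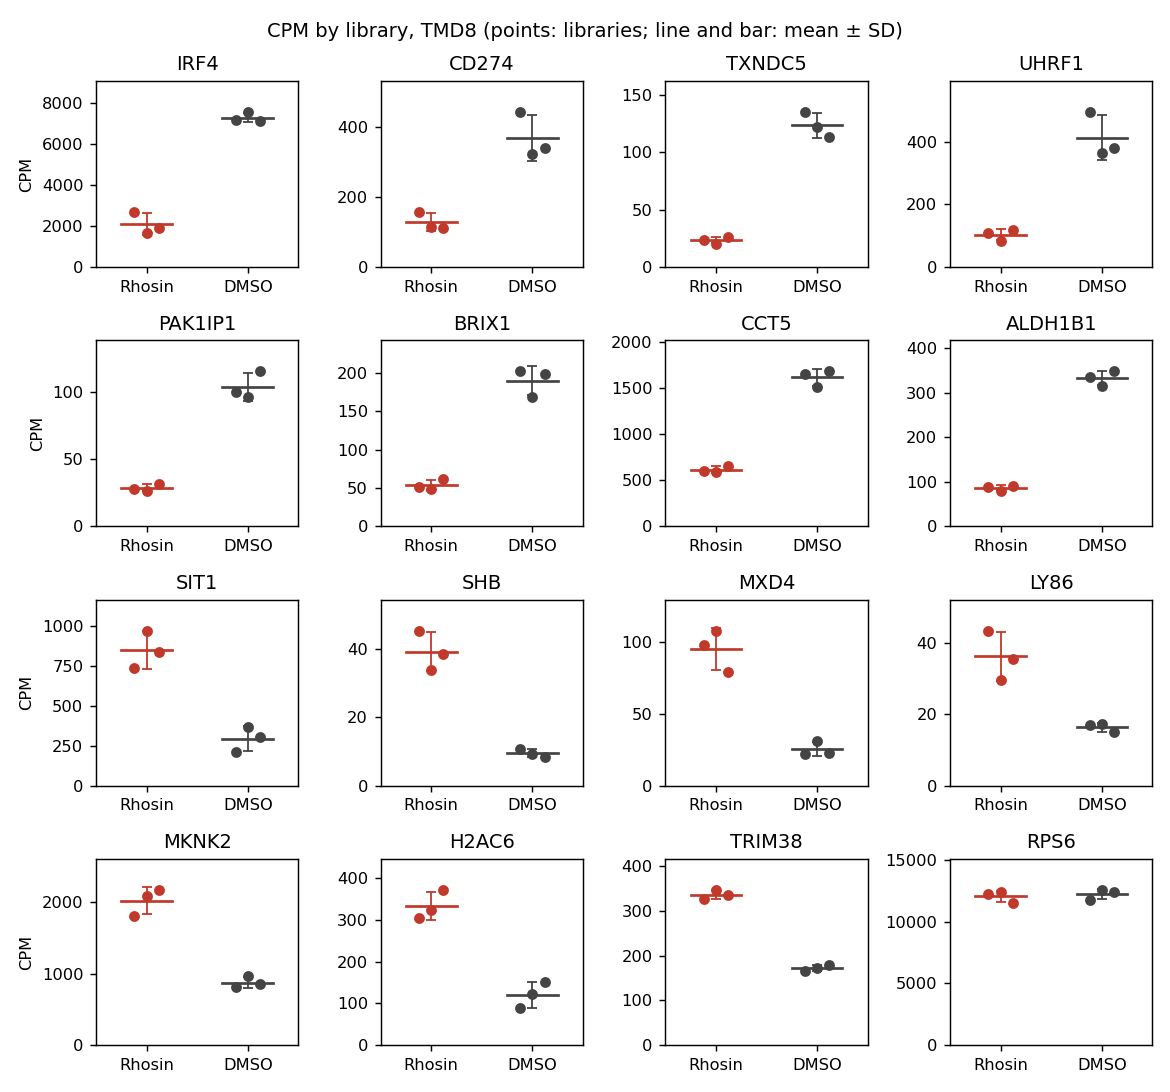
CPM (vertical axes, from 0) of 16 genes in each TMD8 library, Rhosin left and DMSO right, with points for libraries and lines and bars for mean ± SD (n = 3). The groups do not overlap in any panel except that of RPS6.

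Genes that carry or restrain signals from surface receptors were mostly higher under Rhosin. Of 39 listed, 30 were label-checked and 23 tested; 15 rose, 10 of them at least 2-fold, 2 fell and 6 were not called, with a median log2 change of 0.51. SIT1, an adaptor that dampens antigen receptor signals, had 737, 969 and 837 CPM in Rhosin and 208, 364 and 304 CPM in DMSO, a log2 change of 1.54 (SE 0.174, adjusted p = 1.09e-06). SHB, an SH2-domain adaptor of tyrosine kinases, had 45.4, 33.9 and 38.6 CPM in Rhosin and 10.8, 9.36 and 8.36 CPM in DMSO, a change of 2.05 (SE 0.144, adjusted p = 6.42e-09). Each gene's lowest Rhosin library was above its highest DMSO library, by a wide margin for SHB. S1PR4, a receptor for sphingosine 1-phosphate, rose by 2.03, with 14.1, 15.8 and 17.5 CPM in Rhosin and 2.83, 5.81 and 3.16 CPM in DMSO.

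Others of this list encode kinases, receptors and further proteins of several kinds. MKNK2, a kinase that acts on the cap-binding factor eIF4E, had 1810, 2089 and 2170 CPM in Rhosin and 806, 965 and 852 CPM in DMSO, a log2 change of 1.21 (SE 0.121, adjusted p = 2.71e-07). LY86, the partner of the Toll-like protein RP105 on B cells, rose by 1.16, TLR6 by 1.14, CD38 by 1.06 and CD72, which restrains B-cell receptor signals, by 0.90. CD72 had the widest DMSO spread of these, at 205, 387 and 257 CPM, below the 587, 542 and 453 CPM of Rhosin. TLR6 shares exons on the same strand with TLR1. CD38 was low, at 6.43 to 7.86 CPM of the library totals in Rhosin and 2.35 to 3.79 in DMSO. GNA15, a G-protein subunit, rose by 1.5 (SE 0.282), and LINGO3 by 2.75 (SE 0.235). RHOH, a haematopoietic GTPase needed for antigen receptor signals, fell by 0.51 and SH3GL1, an endocytosis protein, by 0.64. JAK2, a kinase of cytokine receptors, was at 0.19 (adjusted p = 0.13).

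B-cell identity genes did not share a direction: of 15 tested, 7 rose, 6 fell and 2 were not called, with a median of 0.26, and with CD83 kept 7 fell. PAX5 had 4035, 3537 and 3550 CPM after scaling in Rhosin and 3522, 4542 and 3617 CPM in DMSO, overlapping groups with a log2 change of -0.07 (SE 0.098, adjusted p = 0.57). KLF3, a repressor in B-cell development, had 12.1, 11.9 and 12.3 CPM in Rhosin and 24.4, 27.7 and 26.7 CPM in DMSO, and fell by 1.12 (SE 0.125, adjusted p = 9.00e-07). TXNDC5, an oxidoreductase of the endoplasmic reticulum that is abundant in plasma cells, fell most of all label-checked genes that met the naming rule. It had 23.6, 20.2 and 25.6 CPM in Rhosin and 135, 122 and 113 CPM in DMSO, a log2 change of -2.42 (SE 0.147, adjusted p = 1.78e-09), though a readthrough gene, BLOC1S5-TXNDC5, can share its reads.

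Factors of ribosome assembly fell together. Of 27 listed, 14 were label-checked and tested, and 12 fell, 10 of them at least 2-fold; 1 was called higher and 1 was not called. The median log2 change was -1.23, against -0.02 over all 569 label-checked genes. PAK1IP1 (ENSG00000111845, chromosome 6, 10694695 to 10709782), a factor of the large ribosomal subunit, had 28, 26.5 and 31.4 CPM in Rhosin and 99.3, 96 and 115 CPM in DMSO, a change of -1.86 (SE 0.141, adjusted p = 1.34e-08). BRIX1, which acts on the same subunit, had 51, 48.2 and 61.4 CPM in Rhosin and 202, 168 and 199 CPM in DMSO, a change of -1.83 (SE 0.119, adjusted p = 3.18e-09). In both genes the Rhosin libraries lay close together and far below DMSO.

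The same held at other steps of ribosome production. RCL1 (ENSG00000120158, chromosome 9, 4792869 to 4885917), needed to process the RNA of the small subunit, had 76.4, 68.6 and 72.5 CPM in Rhosin and 225, 230.0 and 226 CPM in DMSO, a log2 change of -1.65 (SE 0.123, adjusted p = 1.14e-08). RIOK1, a kinase of small-subunit maturation, fell by 1.51, POLR1E, a subunit of RNA polymerase I, by 1.45, and RPP40, a subunit of RNase P and RNase MRP, by 2.00 at low levels of 2.47 to 3.9 CPM in Rhosin and 11.5 to 14 CPM in DMSO. PUM3 (ENSG00000080608, chromosome 9, 2720469 to 2844241), a nucleolar RNA-binding protein outside the list, had 112, 93.5 and 98.2 CPM in Rhosin and 444, 372 and 431 CPM in DMSO, a change of -2.04 (SE 0.127, adjusted p = 2.16e-09). None of these groups overlapped. TENT4A was at 0.26 and POLR2E at -0.28, and both calls were lost without some single libraries, while DROSHA was at -0.10 (adjusted p = 0.312).

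Ribosomal proteins and translation factors showed no shared shift. Of 25 listed, 11 were label-checked and tested; 1 rose, 3 fell and 7 were not called, with a median log2 change of -0.04. MRPL36, a protein of the mitochondrial ribosome, had 64.5, 59.8 and 66.1 CPM in Rhosin and 124, 113 and 117 CPM in DMSO, a change of -0.90 (SE 0.091, adjusted p = 3.11e-07), without overlap. TARS1, which charges threonine transfer RNA, also fell by 0.90, and DAP rose by 0.53. MRPL54, also of the mitochondrial ribosome, fell by 0.31, a call lost in 4 of the 6 fits that left out a library. RPS6, of the cytosolic small subunit, had 12224, 12371 and 11498 CPM in Rhosin and 11752, 12551 and 12403 CPM in DMSO, overlapping groups with a log2 change of -0.02 (adjusted p = 0.823). The other members not called, RPL9, RPL36, RPLP2, RPS15, RPL37 and the elongation factor EEF2, lay between -0.23 and 0.08. RPL36 shares exons on the same strand with HSD11B1L.

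**Figure D3:**
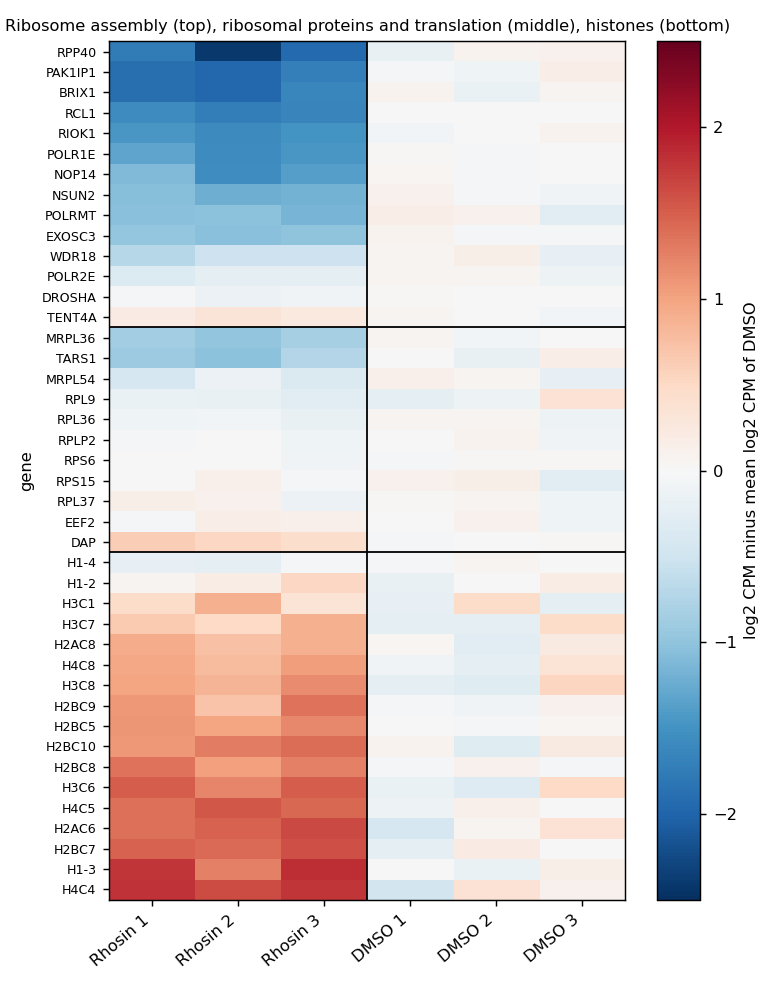
Each gene's log2 CPM minus its mean in DMSO (colour) in each TMD8 library, Rhosin left and DMSO right, for the tested members of the ribosome assembly, ribosomal protein and translation, and histone lists. Most assembly factors are blue and most histones red in all 3 Rhosin libraries; in the middle list MRPL36 and TARS1 are blue and most others pale.

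Chaperones and other factors of protein quality control were lower in 16 of 21 tested genes, with 3 higher, 2 not called and a median log2 change of -0.78. CCT5, part of the TRiC chaperonin complex that helps cytoskeletal proteins fold, had 599, 587 and 660.2 CPM in Rhosin and 1652, 1517 and 1684 CPM in DMSO, a change of -1.40 (SE 0.090, adjusted p = 2.97e-09). DNAJA1, a co-chaperone of HSP70, had 1140, 871 and 975 CPM in Rhosin and 2641, 1964 and 2378 CPM in DMSO, a change of -1.23 (SE 0.126, adjusted p = 3.62e-07). Neither gene's groups overlapped. GRPEL1, which serves mitochondrial HSP70, fell by 1.24 and AFG3L2, a protease of the mitochondrial inner membrane, by 1.18. MARCHF6, a ubiquitin ligase of the endoplasmic reticulum, rose by 0.57 and UBXN6, a partner of VCP, by 0.47.

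Genes of metabolism and mitochondria were lower in 23 of 38 tested, with 4 higher, 11 not called and a median of -0.40. ALDH1B1, a mitochondrial aldehyde dehydrogenase, had 87.1, 78.3 and 90.9 CPM in Rhosin and 335, 316 and 348 CPM in DMSO, a log2 change of -1.96 (SE 0.117, adjusted p = 1.78e-09). NAT8L, which makes N-acetylaspartate, had 3.76, 5.74 and 5.18 CPM in Rhosin and 18.7, 24.5 and 19.6 CPM in DMSO, a change of -2.11 (SE 0.193, adjusted p = 1.05e-07). The 2 groups stood well apart for each gene. NADK2, the mitochondrial NAD kinase, fell by 1.43, LETM1, an ion exchanger of the inner membrane, by 1.47 and MTRR, which keeps methionine synthase active, by 1.23. SDHA (-0.12, adjusted p = 0.205) and GPX4 (-0.01, adjusted p = 0.926) were not called. RNA-processing genes fell in 12 of 17, with 1 called higher, 4 not called and a median of -0.50; examples were PTBP1 and KHSRP, which bind pre-mRNA and each fell by 0.79.

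Cell-cycle and replication genes were lower in 15 of 24 tested, with 2 called higher, 7 not called and a median log2 change of -0.58. UHRF1, which keeps DNA methylation in place through replication, had 108, 82.6 and 118 CPM in Rhosin and 496, 364 and 382 CPM in DMSO, a change of -2.01 (SE 0.175, adjusted p = 5.91e-08). CHAF1A, which loads histones on new DNA, had 87.8, 78.6 and 86.9 CPM in Rhosin and 263, 205 and 203 CPM in DMSO, a change of -1.41 (SE 0.141, adjusted p = 2.70e-07). Both stood below DMSO in every library. GMNN, which prevents re-replication, fell by 1.38, E2F3, a factor of S-phase entry, by 1.33, and TYMS, which makes thymidylate, by 0.79. The mitotic genes NDC80 (0.12, adjusted p = 0.541), TACC3 (-0.12, adjusted p = 0.278) and MELK (-0.19, adjusted p = 0.163) were not called.

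MXD4, the competitor of MYC introduced above, was the gene of this list that rose most. It had 98.3, 108 and 79.1 CPM in Rhosin and 22.1, 31.2 and 23 CPM in DMSO, a log2 change of 1.91 (SE 0.143, adjusted p = 1.14e-08), and its groups did not overlap. Among the 40 chromatin and transcription genes tested, 12 rose, 15 fell and 13 were not called, with a median of 0.03. BRD9, a subunit of a SWI/SNF complex, fell by 1.12 and SMARCA2, an ATPase of such complexes, by 0.89, while ARID3A, a DNA-binding factor of B cells, rose by 0.79 and MLLT3, a reader of acylated histones, by 0.77.

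Histone genes of the chromosome 6 cluster were higher. Of 66 listed, 24 were label-checked and 17 tested, of which 13 were called higher, 0 lower and 4 not called, with a median log2 change of 1.10. H2AC6 had 305, 325 and 372 CPM in Rhosin and 88.1, 123 and 150.5 CPM in DMSO, a change of 1.47 (SE 0.150, adjusted p = 3.28e-07). H2BC5 had 219.7, 201 and 233 CPM in Rhosin and 103, 97.9 and 105 CPM in DMSO, a change of 1.10 (SE 0.101, adjusted p = 1.05e-07). Both had no overlap between groups. H4C4 rose by 1.70 and H1-3, a linker histone, by 1.63. The call of H2BC10 (1.19, adjusted p = 0.0424) was lost in each of the 6 fits that left out a library. Histone genes are near-identical in sequence, so reads may be split or moved between them. H1-2 (0.27, adjusted p = 0.144) and H1-4 (-0.16, adjusted p = 0.66) were not called, though H1-2 was with the replicate number as a block (0.26, adjusted p = 0.00523).

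Interferon and antigen-presentation genes were higher in 10 of 14 tested, with 1 lower (CD274), 3 not called and a median of 0.40. TRIM38, which regulates innate immune signalling, had 326, 347 and 337 CPM in Rhosin and 165, 172 and 179 CPM in DMSO, a log2 change of 0.97 (SE 0.092, adjusted p = 1.50e-07). BTN3A2, a butyrophilin of the family that presents to gamma-delta T cells, had 105, 97.2 and 73.9 CPM in Rhosin and 47.9, 51.2 and 50.1 CPM in DMSO, a change of 0.89 (SE 0.115, adjusted p = 4.49e-06). Neither overlapped. All 6 butyrophilins tested, BTN1A1, BTN2A1, BTN2A2, BTN3A1, BTN3A2 and BTN3A3, were called higher, with a median of 0.71; BTN3A1, BTN3A2 and BTN3A3 are close in sequence, and the 6 were grouped after their values were seen. The interferon-induced IFITM2 (-0.17, adjusted p = 0.322) and IFITM3 (0.02, adjusted p = 0.907) were not called.

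Of 9 genes tested from the list of ATF4 and p53 stress genes, 4 rose, 1 fell and 4 were not called, with a median of -0.01; with the replicate block 2 fell.

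**Figure D4:**
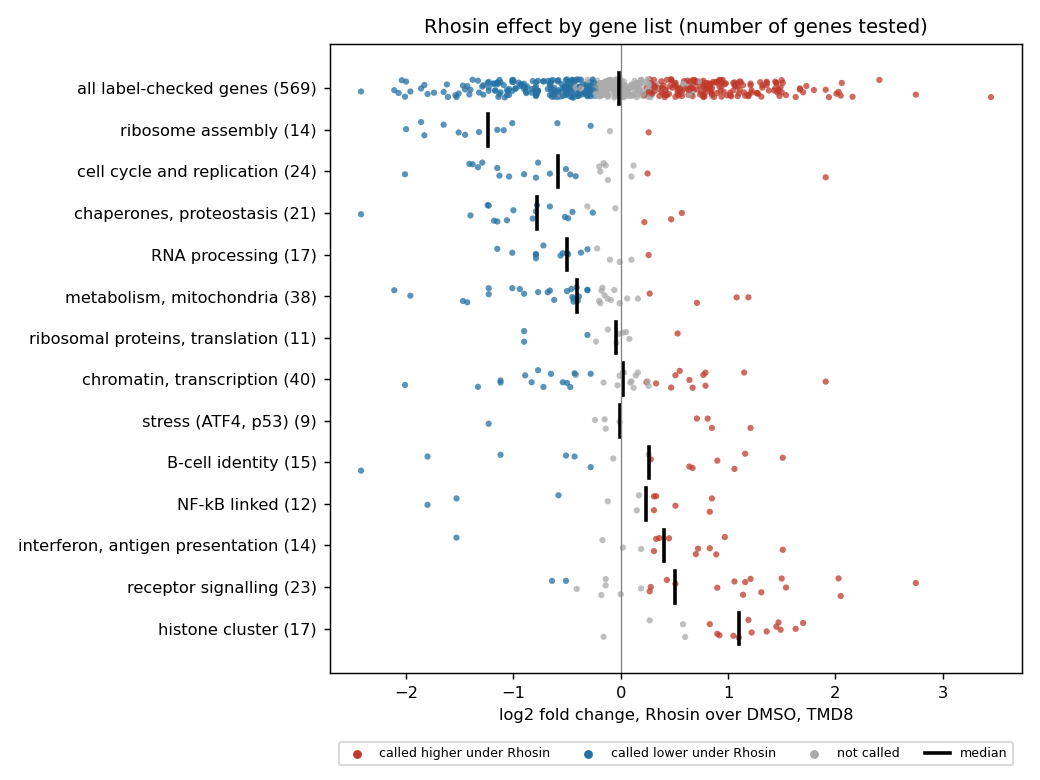
Log2 fold change of Rhosin over DMSO in TMD8 (horizontal axis) for each tested gene of the lists shown and for all 569 label-checked genes (rows), with colour for the call and a bar for the median. The medians run from -1.23 in ribosome assembly to 1.10 in the histone cluster.

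Several of the genes that changed most belong to no list described above. LRRC14B, a leucine-rich repeat protein, had 17.1, 23.2 and 24.9 CPM in Rhosin and 1.47, 2.96 and 1.62 CPM in DMSO, a log2 change of 3.45 (SE 0.252, adjusted p = 9.34e-09). LY86-AS1, a non-coding RNA that shares no annotated exon with its neighbour LY86, had 57, 47.3 and 39.5 CPM in Rhosin and 8.48, 9.72 and 9.05 CPM in DMSO, a change of 2.41 (SE 0.155, adjusted p = 2.97e-09). Neither gene's groups overlapped. Also among the 15 genes that rose most were ATP8B3, a phospholipid-transporting ATPase (2.16), OTULIN-DT (1.73), MUC6, a secreted mucin (1.67), RGS12, a regulator of G-protein signalling (1.5), and H2BC7 (1.49). Among the 15 that fell most was SPIRE1, an actin nucleator, with 6.9, 7.17 and 9.81 CPM in Rhosin and 25, 22.6 and 24.8 CPM in DMSO, a change of -1.62 (SE 0.147, adjusted p = 8.69e-08). Also among them were ANKRD18B (-1.74), AFAP1-AS1 (-1.61) and NUP153, a protein of the nuclear pore (-1.54). The kit was stranded per the labels, but whether counting used strand is not given in the sources used here, so reads cannot be told apart between AFAP1 and AFAP1-AS1, BRIX1 and RAD1, PAK1IP1 and C6orf52, CHAF1A and UBXN6, or SPIRE1 and PSMG2, which, among others, share exons on opposite strands.

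Rhosin was also set against ibrutinib in TMD8, at 60 µM and 10 nM, doses that are not matched. The DMSO libraries entered the shared filter, scaling and estimate of the spread, but not the difference between the drugs. This difference was called for 1262 of 11403 rows (11.1%), and among label-checked genes for 67 higher and 55 lower under Rhosin. With the replicate number as a block it was called for 2021 rows (17.7%), and for 96 higher and 77 lower label-checked genes. Of the 14 ribosome assembly genes 9 were lower under Rhosin than under ibrutinib and 0 higher, with a median difference of -0.51. Ibrutinib against the same DMSO libraries called 4210 of 11403 rows (36.9%). It called 111 higher and 173 lower among the 569 label-checked genes. Of the 14 ribosome assembly genes 11 were lower under ibrutinib than in DMSO and 0 higher (median -0.77). Of 17 histone genes 12 were higher under ibrutinib than in DMSO and 0 lower (median 0.71). Between the drugs, as Rhosin minus ibrutinib, PUM3 differed by -1.04 (adjusted p = 0.000106), UHRF1 by -1.15 (adjusted p = 0.000584) and BRIX1 by -0.87 (adjusted p = 0.00031). For SIT1 (0.04, adjusted p = 0.896), CD274 (0.19, adjusted p = 0.516) and SPIRE1 (0.20, adjusted p = 0.461) the difference between the drugs was not called.

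The last question was whether the response in TMD8 differed from that of RIVA and HBL1 at the same dose and time. Gene labels were checked in TMD8 only, and names in the other lines rest on the same IDs. Rhosin against its own DMSO called 2008 of 11956 rows in RIVA (16.8%), and 2822 (23.6%) with the replicate number as a block. In HBL1 it called 4 of 11905 rows (0.0336%), and 3042 (25.6%) with the replicate number as a block. The HBL1 libraries numbered 2 stood apart from the others. Same-numbered Rhosin and DMSO libraries deviated together for all 3 numbers in TMD8 and HBL1, and for numbers 1 and 2 but not 3 in RIVA. In HBL1 the libraries numbered 1 and 3 also did so across numbers (correlations of 0.277 and 0.266). Whether the numbers pair libraries is therefore not settled. In TMD8 the block gave 403 called label-checked genes in place of 376, and its effects are given without it. Effects within HBL1 carry the block; those within RIVA and the differences between lines do not, and the blocked counts of these differences stand beside them. Across label-checked genes the median size of the log2 change, without the block, was 0.51 in TMD8, 0.25 in RIVA and 0.25 in HBL1.

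A test of the difference itself, the Rhosin effect in TMD8 minus that in RIVA, called 122 of 643 label-checked genes (19%), 75 higher and 47 lower in TMD8, against 11.7% of all rows. With scaling factors from label-checked genes alone the split was 58 and 58, and with the replicate number as a block 248 genes were called. Against HBL1 it called 72 of 643 (11.2%), 37 higher and 35 lower, against 7.63% of all rows, and 176 with the block. The HBL1 count was 40 without HBL1 Rhosin replicate 3, 45 without TMD8 Rhosin replicate 2 and 46 without TMD8 DMSO replicate 1. Sizes of effects were compared without the block where the gene was also tested within both lines. The TMD8 effect was the larger in 99 of 114 calls against RIVA and in 67 of 69 against HBL1.

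Ribosome assembly was lower in all 3 lines and lower still in TMD8. Its median log2 change was -1.23 in TMD8, -0.50 in RIVA and -0.47 in HBL1. In RIVA 9 of 14 genes fell, and 11 with the block, while in HBL1 12 of 14 fell with the block. The difference was called lower in TMD8 for 8 genes against RIVA and 6 against HBL1, and for 0 genes higher; with the block it was 10 lower and 1 higher against each line. BRIX1, for example, was at -1.83 in TMD8, -0.79 in RIVA and -0.78 in HBL1, with differences of -0.95 (adjusted p = 0.0117) from RIVA and -0.99 (adjusted p = 0.0137) from HBL1. IRF4 was at -1.80 in TMD8, -1.37 in RIVA and -1.10 in HBL1, and its difference was not called against RIVA (-0.35, adjusted p = 0.506) or HBL1 (-0.59, adjusted p = 0.25), though with the block it was called against HBL1 (-0.67, adjusted p = 0.0224).

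Some genes moved in opposite directions. GADD45B rose in TMD8 (0.85) and fell in RIVA (-0.77, adjusted p = 0.00392) and in HBL1 (-0.60, adjusted p = 0.0445), with differences of 1.71 (adjusted p = 0.0215) from RIVA and 1.78 (adjusted p = 0.0216) from HBL1. CD72 rose in TMD8 (0.90) and fell in RIVA (-1.12, adjusted p = 0.000161), a difference of 2.11 (adjusted p = 0.00876). Against HBL1, 0 of the 7 label-checked B-cell markers, CD72 among them, were called higher in TMD8 and 1 lower. With the block, 1 was higher and 2 were lower. SIT1 rose in TMD8 (1.54) and was not called in RIVA (-0.34, adjusted p = 0.309), a difference of 1.97 (adjusted p = 0.000165). For receptor signalling genes as a list, the median was 0.51 in TMD8, -0.02 in RIVA and 0.17 in HBL1. The difference was tested for 25 genes of the list. Against RIVA it was called for 10 higher and 1 lower, and with the block for 12 higher and 2 lower. Against HBL1 it was called for 4 higher and 1 lower, and with the block for 8 higher and 1 lower.

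Histone genes rose more in TMD8 than in RIVA for some members. Their median log2 change was 1.10 in TMD8, -0.04 in RIVA (14 genes tested) and 0.74 in HBL1 (10 tested). The difference between lines was tested for 18 genes. It was called higher in TMD8 for 6 against RIVA, 13 with the block, and for 0 against HBL1 in either fit. RIVA and HBL1 were not tested against each other. H2AC6 rose by 1.47 in TMD8 and by 1.45 in HBL1 and was at 0.21 in RIVA (adjusted p = 0.659). The difference from RIVA was 1.35 (adjusted p = 0.0116), and that from HBL1 was 0.08 (SE 0.345, adjusted p = 0.957). The interferon and antigen-presentation list had medians of 0.40 in TMD8, 0.03 in RIVA and 0.22 in HBL1, and TRIM38 was higher in TMD8 by 1.02 against RIVA (adjusted p = 0.000199) and by 0.76 against HBL1 (adjusted p = 0.00494).

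**Figure D5:**
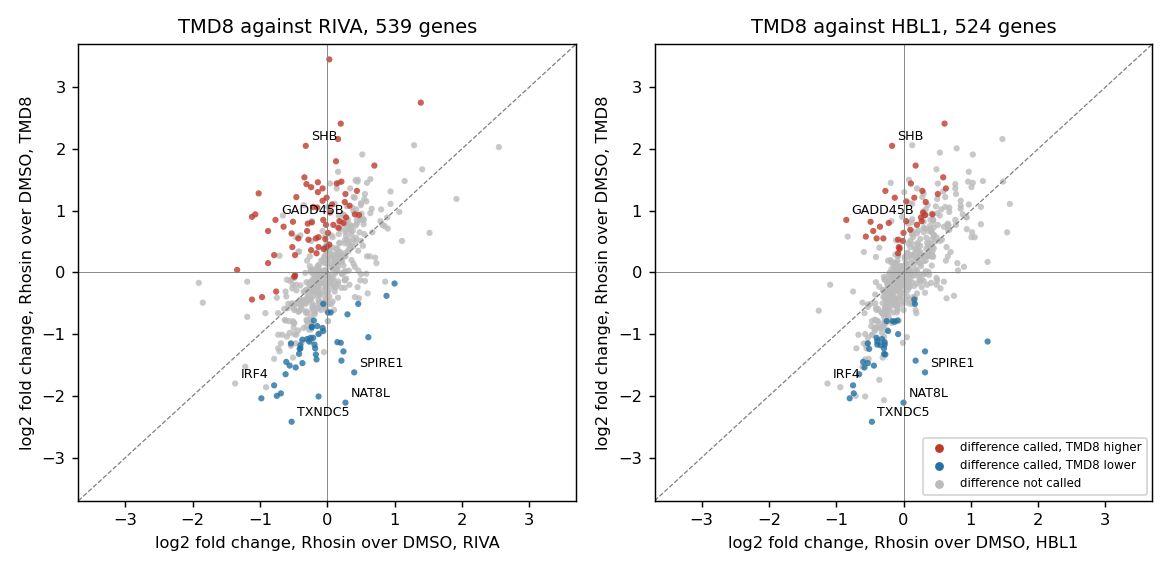
Log2 fold change of Rhosin over DMSO in TMD8 (vertical axes) against that in RIVA (left, 539 genes) and HBL1 (right, 524 genes), with colour where the difference between lines was called and a dashed line of equal effect. Most coloured points lie farther from 0 in TMD8 than in the other line. All values shown are from fits without the replicate block.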

How the data were processed

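RNA was sequenced as paired-end reads from a stranded kit, per the labels' protocols. The submitters' processing notes name bcl2fastq, STAR, cutadapt, RSEM and Picard and the builds hg19 and GRCh37; tool versions and the counting annotation were not given in the sources used here. The authors deposited raw counts per Ensembl ID for each line, and log2 values per gene symbol for the copanlisib set, used only for the level check. Symbols were matched for 62595 IDs and positions from GENCODE 29 for 58126. Members, lists and motifs were chosen with earlier results of these data known. Some gene list results are not reported here.

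The 9 TMD8 libraries were fitted with edgeR 4.0.16 (filterByExpr, TMM, quasi-likelihood F test, mean per treatment) and p-values adjusted by Benjamini-Hochberg over all rows. Differences between lines came from a model of 27 libraries. CPM of single libraries are TMM-scaled, except in the marker check. Genes named singly are the 15 with the largest change each way among those called, with a mean of at least 5 CPM in 1 group and no overlap between groups, the tested members of the lists, and the 6 with the smallest p in each test between lines. The level check's trend is a Theil-Sen line, chosen from 3 forms after the data and the genes that passed were seen. Genes that failed this check are an exception to the naming rule and are named only as having failed it. Same-numbered Rhosin and DMSO libraries correlated in their deviations at 0.127, 0.122 and 0.172 in TMD8. The values were 0.385, 0.649 and 0.294 in HBL1 and 0.207, 0.251 and -0.115 in RIVA. Across numbers 1 and 3 in HBL1 they were 0.277 and 0.266. The labels do not say what a number marks, so pairing is not settled. Of 108 pairs of count libraries within a line 0 were identical, and their chi-square per degree of freedom was at least 3.9. Depth bounds counting error only, since reads carried no molecular identifiers. The fit was tested on simulated counts. Alternatives used DESeq2 1.42.0 and others given at the end.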

Additional observations from a re-analysis of the deposited data

Results flagged for a closer look

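The Rhosin effect differed most clearly between TMD8 and another line for these genes, by edgeR's test of the difference (log2, TMD8 minus the other line). They were picked by that p, so the values are a description.

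SPIRE1, the actin nucleator, differed by -1.93 from RIVA (adjusted p = 3.40e-07) and -1.86 from HBL1 (adjusted p = 2.86e-06). It had 7.96 ± 1.61 CPM in Rhosin and 24.2 ± 1.33 in DMSO in TMD8, and 31 ± 2.49 CPM in Rhosin and 23.5 ± 0.368 in DMSO in RIVA (SD, n = 3 each). TXNDC5 differed by -1.80 from RIVA (adjusted p = 1.00e-06) and -1.86 from HBL1 (adjusted p = 2.38e-06). NAT8L differed by -2.28 from RIVA (adjusted p = 1.61e-06) and -2.02 from HBL1 (adjusted p = 3.14e-05). SHB differed by 2.46 from RIVA (adjusted p = 1.61e-06) and 2.30 from HBL1 (adjusted p = 6.13e-05), at 4.31 ± 1.3 CPM in Rhosin and 5.42 ± 0.813 in DMSO in RIVA. LY86-AS1 differed by 2.29 from RIVA (adjusted p = 9.32e-07). PDZD2 differed by 2.39 from RIVA (adjusted p = 1.27e-06), but its row held 144 CPM in RIVA DMSO and 8.98 CPM in TMD8 DMSO, and its label was not checked in RIVA. NADK2 differed by -1.52 (adjusted p = 1.11e-05) and KANK1 by -1.51 (adjusted p = 1.28e-05) from HBL1.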

How the results depend on the processing

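Of 261 gene results followed under the alternatives, 0 reversed. Leaving out a library lost a call in 62 of these values and other alternatives in 8. A level check within 1 log2 unit gave 250 called genes in TMD8 in place of 376, and 77 at 2-fold in place of 122; with no level check 221 were at 2-fold. Leaving out a library gave 5301 to 5737 rows, 343 to 379 genes, 110 to 129 at 2-fold, 86 to 115 against RIVA and 40 to 102 against HBL1. The replicate block gave 6447 rows, 403 genes and 119 at 2-fold in TMD8, 248 against RIVA and 176 against HBL1, and ended no call of a named gene. Least-squares and lowess trends, added after seeing the data, gave 377 and 384 called genes. Under the lowess curve NOL6 (1.93 units) would also pass, and under the least-squares line CD274 and IRF7 (2.04 each) would not. A robust estimate of the spread, also added then, gave 6032 rows; the adjusted p of GNA15 became 0.0291, and DNAJB5 and PIDD1 were called. Genes moved by copanlisib can fail the level check.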
